A study of Mus musculus with 6 samples.

Results

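Mast cells labelled Pla2g3-/- were compared with Pla2g3+/+ mast cells after both had been kept on wild-type Swiss 3T3 fibroblasts. The members are the pair of arrays whose titles name these cocultures, 2 of the 6 arrays of the series. Each array held 1 RNA pooled from 3 samples, so there is no replicate and no p-value, and precision is limited by having 1 array a side. The mast cells of all groups had been cultured from mouse bone marrow with interleukin-3 at 10 ng/ml, and before any coculture more than 97% of them carried the receptors Kit and FcεRI by flow cytometry. In coculture they stayed for 4 days on the fibroblasts, which are an established line from mouse embryos, and received stem cell factor at 100 ng/ml. They were then recovered after trypsin either as nonadherent cells or on beads against CD117, and the sources used here do not state which route gave the arrayed RNA, nor the nature of the Pla2g3 allele, the strain or the age of the mice.

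The other 4 arrays served for comparison. A second coculture held wild-type mast cells on Lpar1+/+ Swiss 3T3 fibroblasts and is a second wild-type coculture on the same slide. Another held wild-type mast cells on Lpar1-/- fibroblasts, a line made with CRISPR/Cas9 and grown from single cells. The last pair held Pla2g3+/+ mast cells and cells labelled Pla2g3-/- without fibroblasts, on the other slide, for which stem cell factor is not stated. The arrays were 1-colour Agilent whole-genome arrays. Their 75th percentile of signal ran from 1230 to 1520, and between 70.7% and 80.4% of their spots passed as well above background. A level is given below as log2 of a gene's signal over the 75th percentile of its array, so that 0 is that percentile, and the levels of different genes are not compared.

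Pla2g3 encodes a secreted phospholipase A2, an enzyme that frees a fatty acid from phospholipids and leaves a lysophospholipid. Lysophosphatidic acid can be made from such products by autotaxin, and receptors such as Lpar1 respond to it. Mast cells from bone marrow cultures are immature, and fibroblasts with stem cell factor drive them toward the connective tissue type, which stores heparin, histamine, chymases and tryptases. The comparison addresses whether mast cell Pla2g3 takes part in that maturation.

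Pla2g3 itself read higher on the array labelled Pla2g3-/-. Its brightest probe lies on chromosome 11, 3394109 to 3394168 (mm9). That probe read -7.31 and -6.58 on the wild-type cocultures and -1.84 under the Pla2g3-/- label, a 44.4-fold higher signal. It read -4.85 with Lpar1-/- fibroblasts. Further probes read -6.60 under the label against -8.11 on the first wild-type coculture, and -3.51 against -9.10. Both were thus brighter under the label, and these wild-type values were not well above background. On the second wild-type coculture the same probes read -7.11 and -8.13. The first of these values was well above background and not far below the labelled array, and the other was not well above background. Which part of the allele was deleted is not stated in the sources used here, and a probe outside that part checks nothing. The array is therefore called the array labelled Pla2g3-/- throughout, and every direction rests on that label.

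The arrays labelled Pla2g3-/- and Pla2g3+/+ differed at least 2-fold in many genes in coculture. Of 22491 genes well above background on at least 1 of them, 2047 were higher under the label (9.1%) and 2340 were lower (10.4%). The second wild-type array differed from the first in far fewer, 191 higher (0.796%) and 40 lower (0.167%) of 23997. With the second wild-type array as baseline, 2248 genes were higher (9.33%) and 2855 lower (11.8%) of 24104. The standard deviation of the log2 differences was 0.911 in the genotype comparison and 0.287 between the wild-type arrays, where 95% of differences lay within 0.623. In such bulk RNA fewer cells of a type and less RNA per cell cannot be told apart. Normexp background correction gave smaller counts, 1337 higher and 1208 lower, and keeping all probes regardless of background gave 2373 and 4005. The labels do not say whether those wild-type cells came from the same mice, so their spread may be smaller than that of separate cultures.

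**Figure D1:**
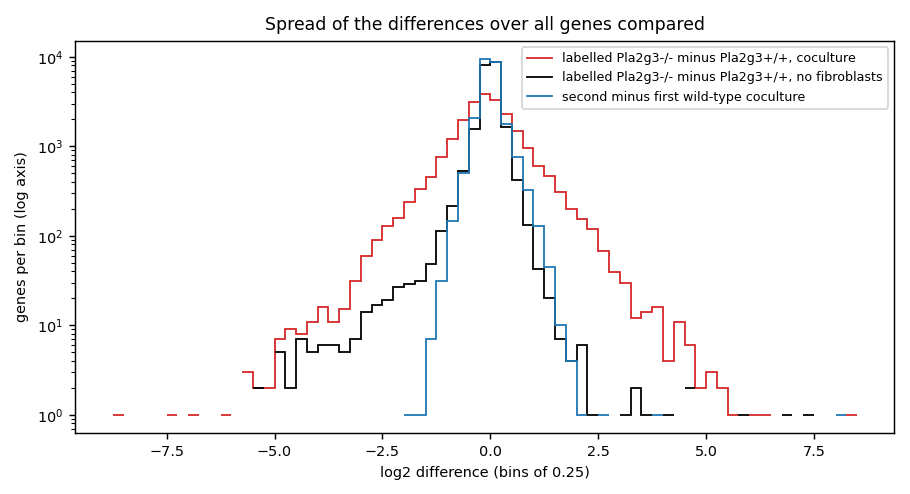
Number of genes per bin of 0.25 log2 difference (x axis) on a log count axis (y axis), for the genotype comparison in coculture, the same comparison without fibroblasts and the pair of wild-type cocultures. The coculture genotype line is the widest (standard deviation 0.911, against 0.385 without fibroblasts and 0.287 for the wild-type pair).

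Immediate early factors, which are transcribed within minutes of a receptor signal, were lower under the label. Of 30 genes compared, 21 were lower by at least 2-fold and 0 higher, with a median of -1.81 on the log2 scale, or 70% of them lower beside 10.4% and a median of -0.08 over all genes. Normexp background correction left 18 lower and a median of -1.15. Fosb, an AP-1 subunit, read 4.52 and 4.96 on the wild-type arrays and -2.28 under the label, which is 112-fold lower than on the first of them. Nr4a1, an orphan nuclear receptor induced by many stimuli, read 4.56 and 4.80 on the wild-type arrays and -1.05 under the label (48.6-fold lower). Egr2, a zinc finger factor of the EGR family, read -2.50 under the label against 2.92 and 3.15 (42.9-fold lower). In each of these the wild-type arrays lay within 0.5 of each other and far above the labelled array. Egr4 was not well above background under the label and was at least 33.4-fold lower. At the other end Klf6, a Krüppel-like factor, read 4.49 under the label against 4.52 and 4.76 and did not differ beyond the wild-type pair.

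Upstream sequence is shown for members that hold a CArG box, the site to which serum response factor binds, since this site is typical of immediate early genes. A script searched both strands of the 250 bases before each start in RefSeq's promoter table (GRCm38.p6). The box was found in 3 of 23 immediate early factors with a window (13% of them, and 1.62% of 27025 genes). The exact cAMP response element TGACGTCA was found in 1 of the 23 (4.35%, against 1.77% of all genes). Of the 3 holders, Egr2 and Zfp36 are printed with the box in capitals. Printing left out holders on 1 chromosome, so these need not be those with the largest differences. Egr2 is at chr10:67537316-67537565, plus strand, and Zfp36, a factor that promotes decay of cytokine transcripts, at chr7:28379229-28379478, minus strand. A match is a description of these letters and not a tested site.
Egr2: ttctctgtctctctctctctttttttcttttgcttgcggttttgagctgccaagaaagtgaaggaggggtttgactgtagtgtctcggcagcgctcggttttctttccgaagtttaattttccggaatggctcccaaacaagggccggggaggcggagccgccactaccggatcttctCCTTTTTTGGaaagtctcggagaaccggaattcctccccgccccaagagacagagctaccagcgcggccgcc
Zfp36: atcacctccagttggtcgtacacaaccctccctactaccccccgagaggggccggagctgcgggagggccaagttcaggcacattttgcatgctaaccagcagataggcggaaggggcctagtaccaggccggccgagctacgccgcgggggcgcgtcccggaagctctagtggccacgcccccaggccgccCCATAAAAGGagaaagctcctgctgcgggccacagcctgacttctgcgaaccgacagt
Zfp36 read -3.36 and -3.03 on the wild-type arrays and -5.08 under the label, 3.29-fold lower.

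Feedback genes of the ERK pathway, which are induced by this kinase cascade and then dampen it, had 14 lower and 0 higher members among 16 (median -2.85, 87.5% lower against 10.4% of all genes). Etv5, an ETS factor, read 3.17 and 3.07 on the wild-type arrays and -1.80 under the label (31.3-fold lower). Dusp6, the phosphatase that acts on ERK, read -1.21 under the label against 3.49 and 3.36 (25.9-fold lower). Dusp4, a related nuclear phosphatase, was 24.5-fold lower, and the receptor kinase inhibitor Spry1 22.8-fold. With normexp background correction 10 of the 16 were lower, with a median of -1.36. Dusp7, the member nearest to 0, differed by 0.34. The second wild-type array gave 13 lower of 17, and between the wild-type arrays 0 were lower.

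NF-kB subunits and inhibitors had 8 lower and 1 higher members among 17 (median -0.91, 47.1% lower against 10.4% of all genes). Nfkbid, an inhibitor that NF-kB itself induces, read 4.0 and 4.65 on the wild-type arrays and 1.54 under the label (5.48-fold lower). Nfkbia, the classical inhibitor IkBα, read 1.89 under the label against 3.93 and 4.59 (4.13-fold lower), and Bcl3 was 5.24-fold lower. Cyld, a deubiquitinase that restrains the pathway, was the higher one (2.29-fold). The adaptor Tnip1 differed by 0.01. For this list the wild-type arrays differed from each other by a median of 0.34, and the median became -1.23 against the second of them.

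Among cytokines and growth factors, 8 of 18 were lower and 2 higher (median -0.78, 44.4% lower against 10.4% of all genes). Tnf, a preformed and inducible mast cell cytokine, showed the largest difference on these arrays among genes measured on both sides. It read 2.04 and 2.58 on the wild-type arrays and -6.47 under the label, 366-fold lower. Hbegf, a ligand of the EGF receptor, was 9.14-fold lower and the alarmin Il33 at least 9.0-fold. Tslp, an epithelial and stromal cytokine, read -6.97 under the label against -4.33 and -4.33 (6.27-fold lower). The opposite held for Il1b, which read -5.83 and -5.61 on the wild-type arrays and -1.87 under the label (15.5-fold higher), and for the type 2 cytokine Il4 (2.98-fold higher). With normexp correction 5 of the 18 were lower. Tnfsf9, the member nearest to 0, differed by -0.08.

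Chemokines had 13 lower and 2 higher members among 18 (median -1.42, 72.2% lower against 10.4% of all genes). Ccl7, which attracts monocytes, read 5.87 and 5.91 on the wild-type arrays and 0.80 under the label (33.7-fold lower). Cxcl2, a neutrophil attractant, was at least 6.63-fold lower, and Ccl12 at least 5.13-fold. Ccl1 was 5.82-fold lower on its brightest probe, while another of its probes stayed within 2-fold. Ccl9 and Ccl6 were 2.50-fold and 2.37-fold higher, and Cxcl9 differed by 0.12. With normexp correction 8 of the 18 were lower, with a median of -0.87.

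Granule proteases did not move as 1 block. Of 10 chymases and other granule proteases, 6 were lower (60%, against 10.4% of all genes) and 2 higher (20%, against 9.1%). With normexp correction 4 were lower. Mcpt4, the chymase of connective tissue mast cells, read 5.79 and 5.80 on the wild-type arrays and 4.66 under the label (2.19-fold lower). Cma2, a related chymase, read 2.02 under the label against 4.58 and 4.58 (5.87-fold lower). The basophil protease Mcpt8 was 3.94-fold lower, Mcpt9 2.49-fold (but 0.01 higher on the log2 scale with normexp background correction), cathepsin G (Ctsg) 2.20-fold, and granzyme B (Gzmb) sat at the threshold (-1.01). Cma1, the gene of mouse mast cell protease 5, and carboxypeptidase Cpa3 stayed near the wild-type arrays, at -0.26 and 0.07. The chymases known from mucosal mast cells lay on the other side. Mcpt1 read -2.85 and -3.23 on the wild-type arrays and 1.02 under the label (14.6-fold higher), while Mcpt2 read 3.78 under the label against 2.11 and 2.02 (3.18-fold higher). These genes have close relatives, so a probe may read more than 1 of them.

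All 4 tryptase genes measured were lower under the label (100%, against 10.4% of all genes, median -2.06). Tpsab1, which encodes mouse mast cell protease 7, read 4.21 and 4.39 on the wild-type arrays and 0.60 under the label (12.2-fold lower). Tpsg1, a membrane-bound tryptase, read 0.03 under the label against 2.94 and 3.05 (7.52-fold lower). Tpsb2, mouse mast cell protease 6, was 2.32-fold lower and Prss34, known from basophils, 2.21-fold. The labelled cells also read lower in 3 of these 4 without fibroblasts, where Tpsab1 differed by -1.68, Tpsg1 by -1.13, Prss34 by -2.64 and Tpsb2 by -0.59.

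The Mrgprb receptors let connective tissue mast cells respond to basic peptides and drugs. Of 4 compared, 3 were lower (75%, against 10.4% of all genes). Mrgprb1 read 0.94 and 0.90 on the wild-type arrays and -5.18 under the label (69.4-fold lower). Mrgprb2, the receptor for many cationic drugs, read 1.13 under the label against 2.70 and 2.66 (2.98-fold lower), and Mrgprb3 was 8.42-fold lower. Mrgprb13 differed by 0.12, and Mrgprb8 was not well above background on either array. Without fibroblasts Mrgprb2 read -3.75 in Pla2g3+/+ cells and -4.24 under the label, and its level was higher in all cocultures than without fibroblasts.

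In the histamine and serotonin group, the enzymes and the transporter differed in direction. Hdc, which makes histamine, read 2.75 and 2.32 on the wild-type arrays and 0.46 under the label (4.88-fold lower). Maoa, which degrades amines, was 3.58-fold lower. Tph1, which starts serotonin synthesis, read 7.41 under the label against 6.31 and 6.37 (2.15-fold higher), and Ddc, the next enzyme, was 2.15-fold higher on its brightest probe while another probe stayed within 2-fold. The vesicle transporter Slc18a2, chosen after its values were seen, differed by 0.59. In all 2 of 11 were lower and 2 higher (18.2% each way, against 10.4% and 9.1% of all genes).

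**Figure D2:**
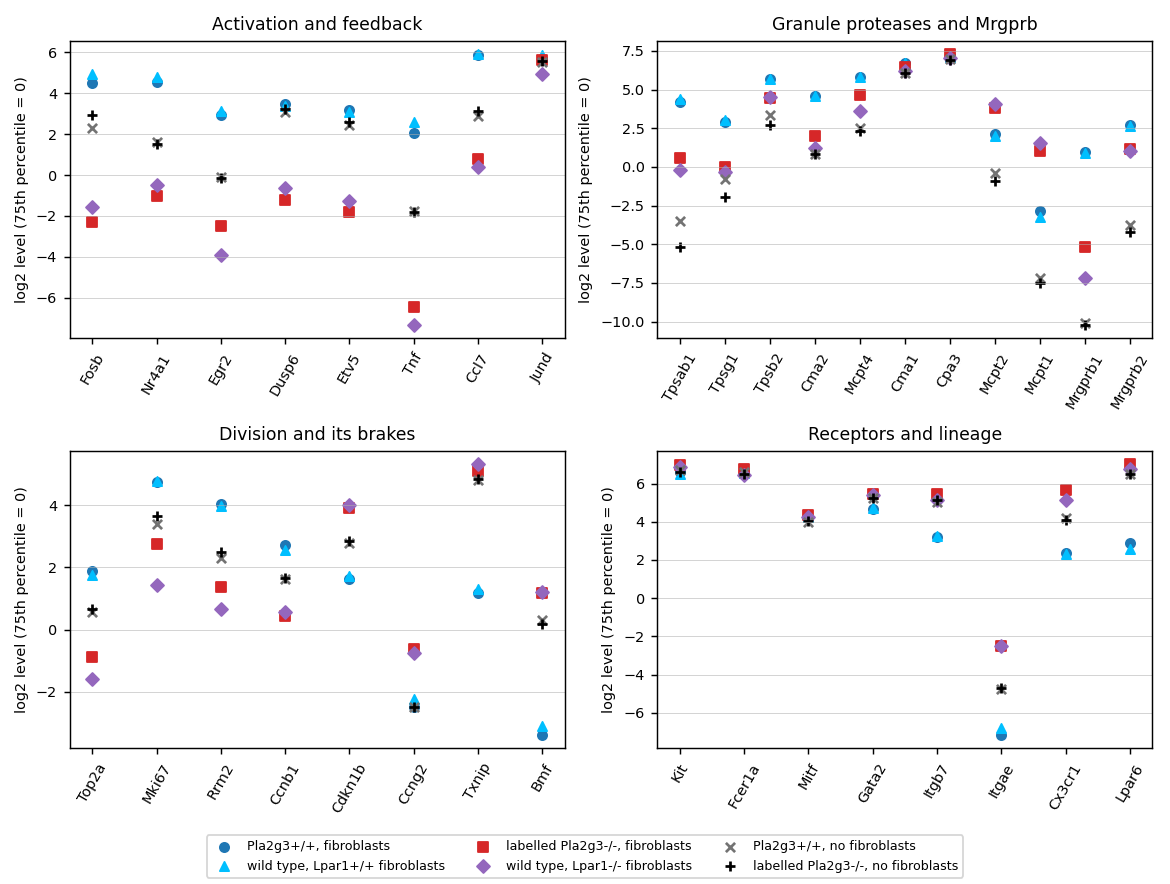
Level of each named gene (log2 signal over the 75th percentile of the array, y axis) on the 6 arrays, 1 symbol per array, with no error bars because each group is 1 array. The wild-type cocultures lie close together, and for many genes the labelled array lies beside the Lpar1-/- fibroblast array, for example at -2.28 and -1.54 for Fosb and at 3.92 and 4.02 for Cdkn1b.

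Genes of phospholipase A2 and lysophosphatidic acid were split with Pla2g3 included, 5 higher and 5 lower of 18 (27.8% each way). Over all genes these shares were 9.1% and 10.4%. With normexp correction 5 of the 18 were higher and only 1 lower, and the median went from -0.12 to 0.08. The lower calls of this list thus depend on the background correction. Lpar6, a receptor for this lipid, read 2.91 and 2.56 on the wild-type arrays and 7.0 under the label (17.1-fold higher). Lpar4 read -5.92 under the label against -2.94 and -2.46 (7.92-fold lower), and Lpar2 was 3.67-fold lower. Enpp2, which encodes autotaxin, was at least 7.07-fold lower. The lysosomal phospholipase Pla2g15 and the plasma lipoprotein enzyme Pla2g7 were 2.79-fold and 2.28-fold higher. Lpar5 differed by 0.12. Among 23 eicosanoid genes 2 were higher (8.7%, near the 9.1% of all genes) and 1 lower (4.35%, against 10.4%). The leukotriene B4 receptor Ltb4r1 was 2.98-fold higher and Hpgd, which inactivates prostaglandins, 7.74-fold lower. Among sphingosine 1-phosphate genes, the kinase Sphk1 read 0.13 and 0.18 on the wild-type arrays and -3.06 under the label (9.07-fold lower), while the exporter Spns2 was 3.47-fold and the receptor S1pr4 2.35-fold higher.

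In the apparatus of IgE signalling few genes passed the 2-fold threshold. Of 28 genes, 1 was higher and 1 lower by 2-fold (3.57% each way, against 9.1% and 10.4% of all genes, median 0.22). Rasgrp4, an exchange factor of mast cells, read -1.64 and -1.72 on the wild-type arrays and 1.67 under the label (9.90-fold higher). Syk, the kinase that the receptor recruits, differed by 0.01. The defining markers Kit, chosen after its values were seen, and Fcer1a differed by 0.35 and 0.13, and all 15 mast cell markers were well above background on every array. Of these markers 4 were lower and 0 higher by 2-fold (26.7% lower, against 10.4% of all genes). Rgs13, a regulator of G protein signalling in mast cells, read -1.56 under the label against 0.93 and 1.0 (5.61-fold lower).

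Receptors and lineage factors also went both ways, with 5 higher and 4 lower of 26 (19.2% and 15.4%, median 0.43). Over all genes 9.1% were higher and 10.4% lower. Ikzf2, a factor of the Ikaros family, read 0.75 and 0.86 on the wild-type arrays and 2.67 under the label (3.79-fold higher). Stat5a, which transmits interleukin-3 and Kit signals, was 2.88-fold and the progenitor factor Myb 2.27-fold higher. On the other side, Irf8, a factor of monocytes and dendritic cells, was at least 4.77-fold lower, the Notch target Hes1 3.61-fold and Lmo2 2.29-fold. Mitf, a central factor of mast cells, differed by 0.07.

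Genes of cell division were lower under the label. Among mitosis genes 35 of 36 were lower (97.2%) and 0 higher (median -2.21). Among DNA replication genes 33 of 47 were lower (70.2%) and 0 higher (median -1.48), beside 10.4% lower over all genes. Top2a, the topoisomerase that untangles chromosomes, read 1.88 and 1.76 on the wild-type arrays and -0.88 under the label (6.79-fold lower). Tpx2, a spindle assembly factor, read -0.61 under the label against 2.01 and 1.91 (6.16-fold lower), and the mitotic kinase Aurkb was 6.03-fold lower. Kif23, a kinesin of cytokinesis, differed least of the mitosis genes, by -0.99. In replication Orc1, a subunit of the origin recognition complex, read -3.28 and -2.89 on the wild-type arrays and -6.41 under the label (8.73-fold lower). Rrm2, which supplies deoxynucleotides, was 6.33-fold and Gins2 5.86-fold lower. Tk1 was 7.47-fold lower on its brightest probe, while another probe stayed within 2-fold. The single-strand binding protein gene Rpa1 differed by -0.03. Without fibroblasts 0 of 36 mitosis genes and 0 of 47 replication genes were lower, with medians of 0.19 and 0.15.

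Upstream sequence of mitosis genes is shown because these genes often carry a cell cycle homology region, TTTGAA, near CCAAT boxes. On either strand TTTGAA was found in 11 of 30 mitosis genes with a window (36.7%, against 18.3% of all 27025 genes), and CCAAT in 22 of 30 (73.3%, against 37.5%). The E2F motif TTTNNCGC was found in 10 of 39 replication genes (25.6%, against 4.94%). The holders of TTTGAA with the largest decreases are printed with that motif in capitals. Top2a is at chr11:99024190-99024439, minus strand, and Ube2c, the ubiquitin-conjugating enzyme of the anaphase-promoting complex, at chr2:164769679-164769928, plus strand.
Top2a: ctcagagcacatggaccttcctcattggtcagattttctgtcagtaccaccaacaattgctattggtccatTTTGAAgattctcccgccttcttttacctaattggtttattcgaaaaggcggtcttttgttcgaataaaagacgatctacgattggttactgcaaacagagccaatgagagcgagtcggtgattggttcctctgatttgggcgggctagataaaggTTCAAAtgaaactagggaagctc
Ube2c: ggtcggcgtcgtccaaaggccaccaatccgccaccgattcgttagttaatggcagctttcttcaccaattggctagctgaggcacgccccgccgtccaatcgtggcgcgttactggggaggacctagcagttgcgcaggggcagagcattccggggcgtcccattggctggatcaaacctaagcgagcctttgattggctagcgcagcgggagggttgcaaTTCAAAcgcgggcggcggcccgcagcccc
The match nearest to the start ends 18 bases before it in Top2a and 24 bases before it in Ube2c. Ube2c read 3.35 and 3.27 on the wild-type arrays and 0.87 under the label, 5.56-fold lower.

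Brakes of the cell cycle went both ways, 7 higher and 8 lower of 29 (24.1% and 27.6%, against 9.1% and 10.4% of all genes). Cdkn1b, the kinase inhibitor p27, read 1.62 and 1.72 on the wild-type arrays and 3.92 under the label (4.92-fold higher). The antiproliferative gene Btg2 was 4.28-fold higher, Ccng2, a cyclin of resting cells, 3.69-fold, and Mxi1, an antagonist of MYC, at least 4.70-fold. In contrast Cdkn1a, the kinase inhibitor p21, read 2.24 under the label against 3.90 and 4.02 (3.17-fold lower), and Cdkn2b was 4.15-fold lower. The stress gene Gadd45b read 1.56 and 2.11 on the wild-type arrays and -1.90 under the label (11-fold lower). Btg1 differed by 0.01 on its brightest probe, while another probe was higher by 1.21.

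Glucocorticoid and FOXO response genes had 9 higher and 2 lower members among 19 (median 0.64, beside 9.1% higher over all genes). FOXO factors act when growth factor signalling through AKT is low. Txnip, a regulator of glucose uptake, read 1.19 and 1.29 on the wild-type arrays and 5.09 under the label (14.9-fold higher). Pik3ip1, an inhibitor of phosphoinositide 3-kinase, read 3.88 under the label against 1.59 and 1.65 (4.89-fold higher), and the repressor Bcl6 was 4.55-fold higher. Sgk1 differed by -0.05. Per1 was 2.31-fold lower on its brightest probe, but another of its probes had the opposite sign. The forkhead motif GTAAACA was found in 2 of 17 of these genes with a window (11.8%, against 3.54% of all genes).

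In the BCL-2 family 5 of 15 were lower and 1 higher (33.3% and 6.67%, against 10.4% and 9.1% of all genes). The higher one was Bmf, a cell death activator, which read -3.39 and -3.10 on the wild-type arrays and 1.17 under the label (23.6-fold higher). The survival gene Bcl2a1d was 23.9-fold lower, although it has near-identical copies and the member is uncertain. The death activators Bik, Bok and Pmaip1 were 2.98-fold, 2.68-fold and 2.63-fold lower, and Bax differed by -0.02.

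Cholesterol synthesis genes, which are driven by the factor SREBP2 when membranes lack sterol, had 23 lower and 0 higher members among 25 (median -1.58, 92% lower against 10.4% of all genes). Hsd17b7, a reductase late in the pathway, read -0.27 and -0.28 on the wild-type arrays and -3.42 under the label (8.90-fold lower). Cyp51, the lanosterol demethylase, read -1.74 under the label against 1.0 and 1.0 (6.67-fold lower). Idi1, which isomerises the isoprene unit, was 6.23-fold lower. The isomerase gene Ebp differed least, by -0.34. Without fibroblasts 0 of 25 were lower (median 0.07). Fatty acid synthesis genes had 6 lower and 0 higher members among 14 (42.9% lower, against 10.4% of all genes). The elongase Elovl6 was 3.75-fold, the desaturase Scd1 3.57-fold and the synthase Fasn 2.96-fold lower. Among efflux genes Abca1 was 2.82-fold lower and Abcg1 2.27-fold higher.

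The upstream sequence of cholesterol genes is shown for the CCAAT box, to which NF-Y binds beside SREBP sites. It was found in 16 of 17 genes with a window (94.1%, against 37.5% of all genes), whereas the exact sterol response element of the LDL receptor gene was found in 0 of 17 (0.0814% of all genes). Those letters were thus not in these windows, which says nothing of the factor. CCAAT is in capitals on either strand, so that ATTGG marks the minus strand. Hsd17b7 is at chr1:169969206-169969455 and Cyp51 at chr5:4104698-4104947, both on the minus strand.
Hsd17b7: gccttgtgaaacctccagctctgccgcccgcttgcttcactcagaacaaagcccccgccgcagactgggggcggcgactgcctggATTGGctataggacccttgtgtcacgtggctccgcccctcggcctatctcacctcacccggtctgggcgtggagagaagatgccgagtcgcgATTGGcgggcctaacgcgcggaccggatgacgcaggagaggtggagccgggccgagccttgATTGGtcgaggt
Cyp51: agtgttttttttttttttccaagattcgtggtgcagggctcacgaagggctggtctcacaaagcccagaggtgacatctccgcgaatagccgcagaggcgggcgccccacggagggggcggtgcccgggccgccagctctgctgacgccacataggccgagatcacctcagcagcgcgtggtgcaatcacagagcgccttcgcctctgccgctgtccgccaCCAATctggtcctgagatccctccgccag
Hsd17b7 holds 3 matches and Cyp51 holds 1.

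Amino acid response genes, which the factor ATF4 induces when amino acids or serine run low, had 19 lower and 2 higher members among 33 (median -1.12, 57.6% lower against 10.4% of all genes). Cth, which makes cysteine, read -2.41 and -1.76 on the wild-type arrays and -6.12 under the label (13.1-fold lower). Trib3, a pseudokinase induced by ATF4, read 0.68 under the label against 3.16 and 3.79 (5.58-fold lower). Chac1, which degrades glutathione, was 5.54-fold lower, and Pycr1, a proline enzyme, 7.06-fold on its brightest probe while another probe stayed within 2-fold. Ddit4, an inhibitor of mTORC1 that FOXO factors and glucocorticoids also induce, read 3.77 and 3.71 on the wild-type arrays and 5.86 under the label (4.26-fold higher), and the glycine transporter Slc6a9 was 3.14-fold higher. Cth, Pycr1 and Nupr1, the last chosen after its values were seen, were also at least 2-fold below the Lpar1-/- fibroblast array.

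Upstream sequence is shown for the response element TGATGNAA, to which ATF4 with C/EBP binds. It was found on either strand in 8 of 29 of these genes with a window (27.6%, against 3.91% of all genes). Outside the chromosome left out of printing, the holders with the largest decreases are printed with the match in capitals. Pycr1 is at chr11:120643749-120643998, minus strand, and Chac1 at chr2:119350992-119351241, plus strand.
Pycr1: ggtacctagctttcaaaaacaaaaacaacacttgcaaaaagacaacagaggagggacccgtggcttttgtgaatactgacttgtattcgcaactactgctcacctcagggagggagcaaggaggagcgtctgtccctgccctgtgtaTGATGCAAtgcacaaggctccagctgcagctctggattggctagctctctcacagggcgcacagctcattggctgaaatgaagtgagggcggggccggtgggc
Chac1: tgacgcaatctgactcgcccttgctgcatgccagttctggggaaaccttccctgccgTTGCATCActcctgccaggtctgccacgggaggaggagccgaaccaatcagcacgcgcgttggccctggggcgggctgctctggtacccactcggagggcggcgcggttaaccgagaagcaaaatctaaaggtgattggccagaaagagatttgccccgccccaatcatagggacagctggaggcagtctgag
The match begins 103 bases before the start in Pycr1 and 193 bases before it in Chac1. Chac1 read 0.48 and 0.82 on the wild-type arrays and -1.99 under the label.

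Other programs of growth moved less. In the unfolded protein response 5 of 18 were lower and 0 higher (27.8% lower, against 10.4% of all genes, median -0.60). The chaperone Hspa5 was 2.74-fold and Calr 2.40-fold lower. Against the second wild-type array 9 of 18 were lower. Ribosome biogenesis genes and MYC targets were lower in 8 of 42 (19.1%, median -0.35), with Rrp12 3.63-fold and Tsr1 2.81-fold lower. Of 45 respiratory chain genes 2 were lower (4.44%, against 10.4% of all genes), with a median of -0.37. Glycolysis and hypoxia genes had 7 lower and 2 higher members among 30 (23.3% and 6.67%, against 10.4% and 9.1% of all genes). The glucose transporter Slc2a3 was 4.07-fold and the kinase Pdk1 4.24-fold lower. Lysosome genes had 8 lower and 3 higher members among 42 (19.1% and 7.14%, against 10.4% and 9.1% of all genes), with the proteases Ctss 12.4-fold and Ctsh 4.49-fold lower and Ctso 5.09-fold higher. Tfrc, the transferrin receptor through which dividing cells take up iron, read -0.48 and -0.31 on the wild-type arrays and -3.58 under the label (8.60-fold lower).

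**Figure D3:**
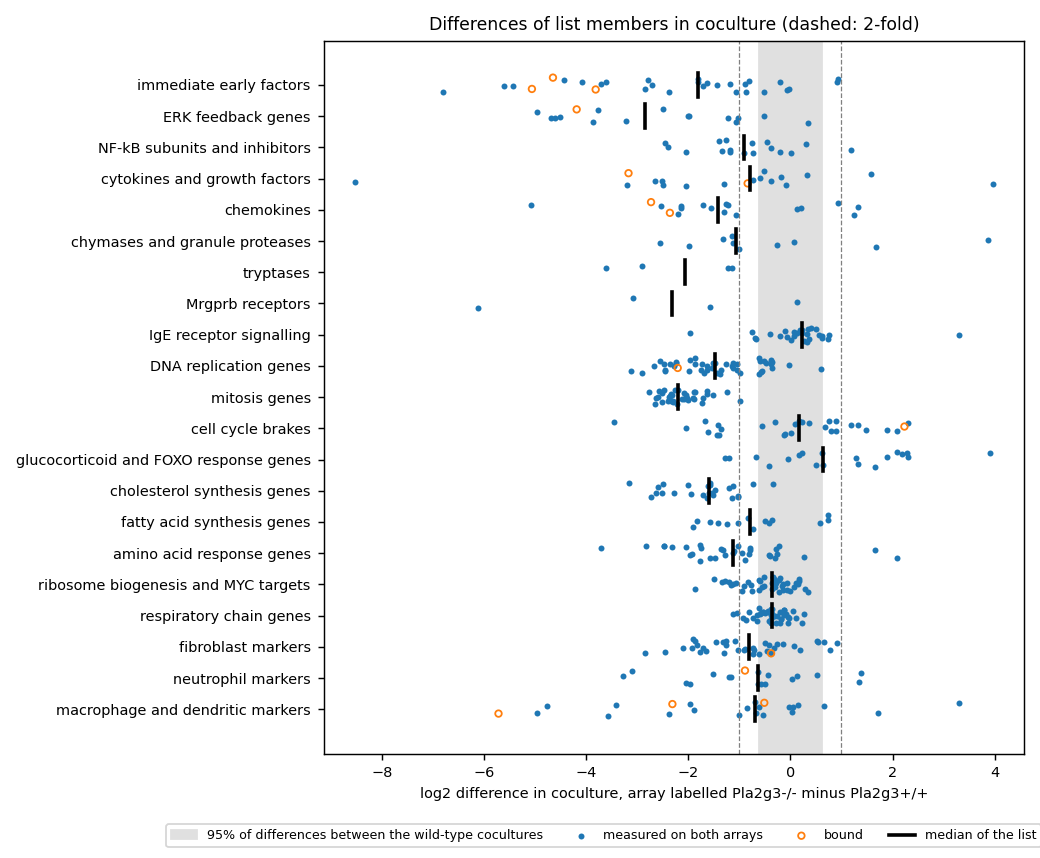
Log2 difference of each list member in coculture (x axis, array labelled Pla2g3-/- minus Pla2g3+/+) for 21 gene lists (rows). Filled points were measured on both arrays, open points are bounds, bars are list medians, and the grey band spans 0.623 either way, which holds 95% of the differences between the wild-type arrays. The medians of the ERK feedback (-2.85) and mitosis (-2.21) lists lie outside the band, and that of IgE signalling (0.22) lies inside it.

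Integrin subunits went both ways, 7 higher and 4 lower of 24 (29.2% and 16.7%, against 9.1% and 10.4% of all genes). With normexp correction 4 were higher and 2 lower. Itgae, which with Itgb7 forms the receptor for E-cadherin on mucosal mast cells, read -7.15 and -6.77 on the wild-type arrays and -2.49 under the label (25.4-fold higher). Its wild-type readings were low, since the lowest signals well above background on those arrays were -8.065 and -8.438. Itgb7 read 5.44 under the label against 3.22 and 3.25 (4.66-fold higher), and Itgax was 7.64-fold higher. Cdh1, the gene of E-cadherin itself, was 7.27-fold higher. Itga9 was 9.20-fold and the leukocyte chain Itgb2 4.90-fold lower. Among other surface genes, Cd24a read -3.52 and -3.44 on the wild-type arrays and 0.22 under the label (13.3-fold higher), Cd52 was 5.28-fold higher, and the activation marker Cd69 2.84-fold lower. The tetraspanin Cd63 differed by 0.10.

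Interferon response genes were divided, 10 higher and 6 lower of 35 (28.6% and 17.1%, against 9.1% and 10.4% of all genes). Oasl2 and Rsad2, antiviral effectors, were 4.93-fold and 3.47-fold higher. Ifit1 was 5.52-fold, Ifit3 at least 3.50-fold and Oas2 3.04-fold lower. Of 19 antigen processing genes 2 were lower, at 10.5% near the share of all genes, and 0 higher, with H2-Ab1 2.57-fold lower and Psmb9 at -0.09. Another Psmb9 probe was higher by 1.62. Socs3, a feedback inhibitor of cytokine receptors, read 1.43 and 1.46 on the wild-type arrays and -1.44 under the label (7.27-fold lower), and Cish was 4.43-fold lower. Il2ra, a chain of the interleukin-2 receptor, was 6.61-fold higher.

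Further signalling genes moved singly. Ahrr, the repressor of the aryl hydrocarbon receptor, read -3.54 and -3.37 on the wild-type arrays and 2.62 under the label (71.5-fold higher), while the receptor itself, Ahr, outside the naming rule, differed by -0.09. The reductase Nqo1 was 4.06-fold higher and the retinoic acid hydroxylase Cyp26a1 at least 5.04-fold. Bmp4 was 8.29-fold higher, whereas Smad6, an inhibitor of BMP signalling, was 3.39-fold lower. The ectonucleotidase Entpd1 was 6.11-fold and the receptor P2ry10 5.51-fold higher, and the adenosine receptor Adora2b 6.02-fold lower. Notch3 was 6.41-fold lower, but with normexp correction 0 of 12 Notch genes were lower by 2-fold. In heparin and chondroitin synthesis the sulfotransferase Chst15 and the synthase Chsy1 were 2.92-fold and 2.92-fold higher, and Ext1, which builds the heparin chain, 2.33-fold lower. Lyst, a regulator of granule size, was 2.84-fold higher and Vamp3 2.33-fold lower.

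Over all genes, the highest measured on both arrays included Trim12a, of the TRIM5 family, which read -7.74 and -7.71 on the wild-type arrays and 0.72 under the label (353-fold higher), and Tescl, which read -1.22 under the label against -7.52 and -7.34 (78.7-fold higher). Ctse, an aspartic protease of endosomes, read -0.87 and -0.93 on the wild-type arrays and 4.23 under the label (34.5-fold higher). Tbx6, a T-box factor, was 36.3-fold and the Ikaros family factor Ikzf4 26.3-fold higher. Zfp831 and Sec14l2 were 27.4-fold and 27.3-fold higher, Atp1b2, a sodium pump subunit, 24-fold, and 1700113H08Rik 51.4-fold. The largest bounds on higher genes were Adamts15 (at least 40.6-fold), Il1bos (at least 22.5-fold), Nsg2 (at least 20.1-fold, with another probe within 2-fold) and Olfr1052, which had another probe of the opposite sign. Il1bos lies antisense to Il1b, and both were higher.

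Among the lowest genes, Wfdc17, a small secreted protein of activated macrophages, read 0.14 and -0.02 on the wild-type arrays and -7.18 under the label (160-fold lower). Gpnmb, a glycoprotein of lysosomes and melanosomes, read -6.58 under the label against -1.0 and -1.26 (47.7-fold lower). Clec10a, a lectin of macrophages and dendritic cells, was 31.1-fold, the muscle cytochrome oxidase subunit Cox6a2 31.8-fold and the G protein subunit Gnai1 28.3-fold lower. The bounds on lower genes were led by the mannose receptor Mrc1 (at least 52.5-fold) and the ETS factor Spib (at least 40.2-fold).

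Markers of other cell types also differed between these arrays. Of 38 fibroblast markers 17 were lower and 0 higher (44.7% lower, against 10.4% of all genes, median -0.81). Their summed signal, as log2 over the 75th percentile, was 5.58 and 5.62 on the wild-type cocultures and 4.53 under the label. Dcn, a matrix proteoglycan, read -1.14 and -0.88 on the wild-type arrays and -3.58 under the label (5.46-fold lower), and Tgfbi was 7.22-fold lower. Pdgfrb differed by 0.06. Under the label 37 of 41 fibroblast markers were well above background, and 38 and 39 on the wild-type cocultures. Without fibroblasts the summed signal was 2.49 and 2.06, though those arrays lie on the other slide, and slide and coculture cannot be told apart. The part of fibroblast RNA in the lower immediate early, chemokine, cell cycle and cholesterol genes was not tested. With normexp correction 14 of the 38 fibroblast markers were lower, with a median of -0.40. On the Lpar1-/- fibroblast array the summed signal was 5.79. Against the second wild-type array 11 markers were higher and 5 lower of 40 there (27.5% and 12.5%). Over all genes of that comparison 11.3% were higher and 8.84% lower, so the lower share was near that of all genes. Thy1, chosen after its values were seen, was higher by 7.61 on the log2 scale.

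Macrophage and dendritic markers had 10 lower and 2 higher members among 23 (43.5% and 8.7%, against 10.4% and 9.1% of all genes, median -0.69). Trem2, a lipid receptor of macrophages, read -7.39 under the label against -2.62 and -2.90 (27.3-fold lower), and Cx3cr1, the fractalkine receptor, was 9.87-fold higher. Their summed signal was 6.57 and 6.48 on the wild-type cocultures and 6.82 under the label. Under the label that sum was carried mainly by Cx3cr1 and Siglech, so it does not speak for the list. Cx3cr1 read 5.64 under the label against 2.34 on the first wild-type coculture, and Siglech 5.51 against 5.54. C1qa, Cd163, Mertk, Xcr1 and Cd209a were not well above background on either array of the comparison. Neutrophil markers had 7 lower and 2 higher members among 18 (38.9% and 11.1%, against 10.4% and 9.1% of all genes, median -0.63). Their summed signals were 5.91 and 5.76 on the wild-type cocultures against 5.91 under the label. Chil3 and S100a8, named next, read far below these sums, so other members carried them and the sums do not speak for the list. Chil3, a chitinase-like protein, read -2.58 and -2.83 on the wild-type arrays and -5.87 under the label (9.75-fold lower), and S100a8, a granulocyte calcium-binding protein, -2.67 under the label against -0.61 and -0.42 (4.14-fold lower). Under the label 17 of 19 neutrophil and 20 of 28 macrophage markers were well above background. Csf3r differed by 0.04. Summed signals were 0.11 and 0.13 against 0.08 for eosinophil, 7.05 and 6.96 against 7.44 for basophil, 5.57 and 5.51 against 5.58 for megakaryocyte, 1.00 and 0.93 against 0.12 for erythroid, and 1.18 and 1.18 against 1.00 for lymphocyte markers. The basophil list includes Fcer1a, also counted above as a mast cell marker, and Itgb7, so its sum is not particular to basophils. Of its 6 members compared, 2 were higher and 2 lower (33.3% each way, against 9.1% and 10.4% of all genes, median -0.01). With normexp correction 4 of the 18 neutrophil and 8 of the 23 macrophage and dendritic markers were lower, with medians of -0.14 and -0.27. The part of these cells in the results was not tested.

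The same label was compared without fibroblasts on a pair of arrays apart from the cocultures. There 90 genes were higher (0.414%) and 342 lower (1.57%) of 21728. Of the genes compared in both settings, 36 were higher in both, 1.81% of the coculture list and 43.9% of the list without fibroblasts, and 139 were lower in both, 6.68% and 46.8%. Across 19724 genes measured throughout, the differences had r = 0.17 and rho = 0.0687, as a description. Higher in both were Pla2g3 (6.82 without fibroblasts), Trim12a (7.40), Tescl (5.82) and Ctse (4.66). These 4 were also at least 2-fold above the Lpar1-/- fibroblast array. Without fibroblasts the list medians were 0.02 for immediate early factors, -0.06 for ERK feedback, -0.08 for amino acid response and -0.19 for glucocorticoid and FOXO genes. Tnf differed by -0.03, Fosb by 0.60, Lpar6 by 0.04 and Ahrr by 0.20. For some genes the labelled coculture lay near both arrays without fibroblasts, although these are on another slide. Lpar6 read 6.48 and 6.52 there against 7.0 in the labelled and 2.91 in the Pla2g3+/+ coculture. Txnip read 4.82 and 4.84 there against 5.09 and 1.19. For others the labelled coculture lay below the arrays without fibroblasts as well, as for Tnf, which read -1.77 and -1.80 without fibroblasts, and Dusp6, which read 3.11 and 3.22. Neutrophil markers were lower in 15 of 18 without fibroblasts (83.3%, against 1.57% of all genes, median -2.81).

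**Figure D4:**
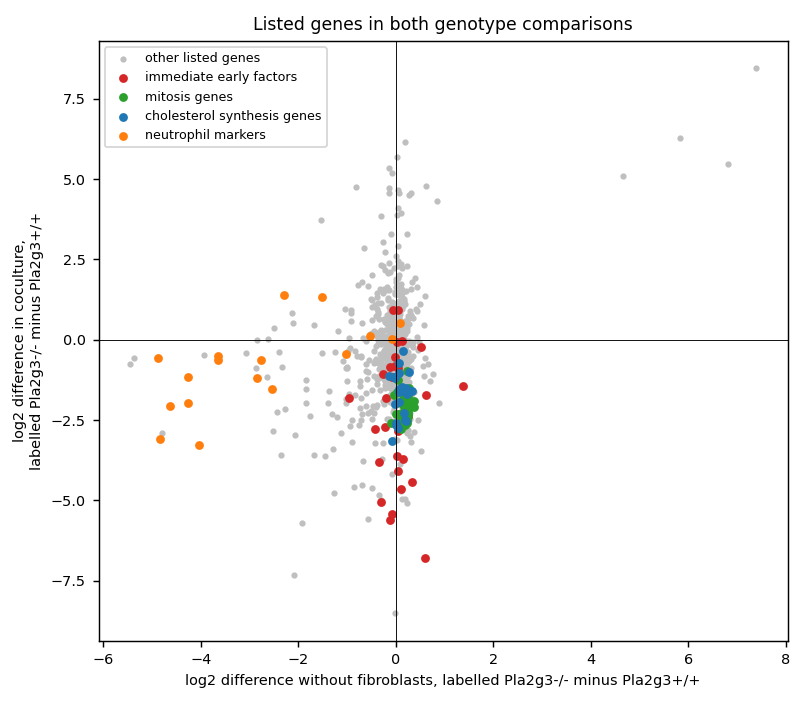
Log2 differences of listed genes between the array labelled Pla2g3-/- and the Pla2g3+/+ array, without fibroblasts (x axis) and in coculture (y axis), 1 point per gene. Most immediate early, mitosis and cholesterol genes spread along the y axis near 0 on the x axis, and most neutrophil markers lie to the left (median -2.81 without fibroblasts).

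Another pair on the same slide, wild-type mast cells on Lpar1-/- against Lpar1+/+ fibroblasts, shares no array with this comparison. It differed at least 2-fold upward in 2767 genes (11.3%) and downward in 2168 (8.84%) of 24532. Of genes compared in both, 1740 were higher in both, 85.1% of the genes higher under the Pla2g3-/- label and 65.6% of those higher with Lpar1-/- fibroblasts. Lower in both were 1538, 65.8% and 72.7% of the lists, while 2 and 35 went in opposite directions. Across 20718 genes the differences had r = 0.862 and rho = 0.826, as a description. Fosb read -1.54 with Lpar1-/- fibroblasts against -2.28 under the label, Mcpt1 1.53 against 1.02, Lpar6 6.76 against 7.0 and Bmf 1.21 against 1.17. Of the lists, 23 of 30 immediate early factors, 34 of 36 mitosis genes and 24 of 25 cholesterol genes were lower with Lpar1-/- fibroblasts. Direct comparison of these arrays gave 275 genes higher under the label (1.16%) and 1193 lower (5.04%) of 23649.

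Genes that set the labelled array apart from all 3 other cocultures were fewer. At least 2-fold above each of the 3 were 68 (0.306%) and below each 424 (1.91%) of 22214 genes. Among the listed genes those below included fibroblast markers (7 of 38), neutrophil markers (7 of 18), ERK feedback genes (4 of 16) and macrophage markers (4 of 22), and 0 of 46 DNA replication, 0 of 36 mitosis and 0 of 25 cholesterol genes. Sec14l2, a lipid transfer protein gene, was above all 3 (-1.30 against -6.07, -5.65 and -3.12). Tfrc was below all 3, with -2.54 on the Lpar1-/- fibroblast array, and so was Hbegf, with -1.50. Against the Lpar1-/- fibroblast array, 20 of 40 fibroblast markers (50%) and 13 of 19 neutrophil markers (68.4%) were lower, beside 5.04% of all genes.

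**Figure D5:**
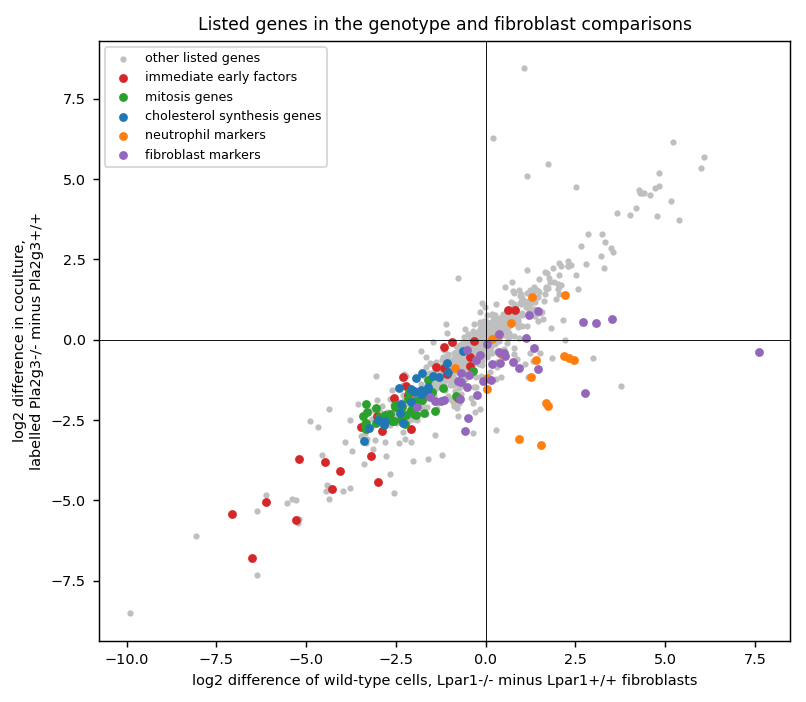
Log2 differences of listed genes for wild-type mast cells on Lpar1-/- against Lpar1+/+ fibroblasts (x axis) and for the array labelled Pla2g3-/- against Pla2g3+/+ (y axis), 1 point per gene, with no array in common. Most immediate early, mitosis and cholesterol genes lie in the lower left, and several neutrophil and fibroblast markers lie to the lower right of the main band.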

How the data were processed

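Each RNA was hybridised to a 1-colour Agilent array. Spot intensities were background-subtracted in the authors' scanner software, which the file headers name as version 12.1.1.1 of Agilent's Feature Extraction. The deposited series table holds a scaled signal per probe, which equals that intensity over about the array's 75th percentile and served as an alternative. Its direction and scale are known from that match, and its column medians were 0.0485 (Pla2g3+/+ coculture) and 0.0498 (Pla2g3-/- label).

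From these, log2 of the processed intensity minus each array's 75th percentile was taken over 43020 noncontrol spots per array. Outlier spots (84 to 115 an array) were left out, 0 spots were saturated, and spots of a probe were averaged. The brightest probe of a gene was used among 29594 genes. Of 39416 probes kept, 29913 were named through the accession, 2660 by symbol, 13 by synonym and 6830 as the file has them (RefSeq, GRCm38.p6 tables). For genes named by the rule below, other probes are named in the Results where 1 probe was past 2-fold and another was within 2-fold or of opposite sign. A gene was compared if well above background on at least 1 array. Where 1 side was not, that side was set to the higher of its own and the array's lowest signal well above background, giving "at least" folds. Called means at least 2-fold.

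Members and gene lists were chosen with earlier results of these data known. Named were up to 4 highest and 4 lowest called genes of a list, the member nearest to 0, fixed families, and the 12 highest, 12 lowest and largest bounds. Some genes that the rule names are not reported here. Kit, Fos, Slc18a2, Ahr, Nupr1, Zfp36, Ube2c, Thy1 and, in the plot of levels, Jund, Mki67, Ccnb1 and Gata2 fall outside that rule and were chosen after their values were seen. Python 3.11.15, pandas 2.3.3, NumPy 2.4.6, R 4.3.3 and limma 3.58.1 were used, and the fold computation was tested on simulated data. Alternatives changed background correction, scaling, filters, probe averaging and the wild-type baseline.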

Additional observations from a re-analysis of the deposited data

Results flagged for a closer look

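In 4 listed genes the label went at least 2-fold one way in coculture and at least 2-fold the other way without fibroblasts. Each side is 1 array, and the difference between the settings was not tested. Cd24a, a surface glycoprotein, was higher by 3.73 on the log2 scale in coculture (0.22 against -3.52) and differed by -1.53 without fibroblasts (2.04 against 3.57). Fos, an AP-1 subunit, differed by -1.43 in coculture (-2.42 against -0.99) and by 1.37 without fibroblasts (1.78 against 0.41). The neutrophil collagenase Mmp8 differed by 1.35 and -1.52, with -1.82 against -3.17 in coculture. Retnlg, another neutrophil marker, differed by 1.39 and -2.29, with -6.38 against -7.76 in coculture.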

How the results depend on the processing

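No leave-one-out fit was possible with 1 array a group. No paired analysis was possible because each group is 1 array. Normexp background correction, which moved the median of all genes by 0.17, gave 1337 higher and 1208 lower genes, and list medians of -1.15 (immediate early), -1.36 (ERK feedback), -0.87 (chemokines), -0.54 (chymases), -1.85 (Mrgprb), -0.40 (fibroblast), -0.14 (neutrophil), 0.14 (eosinophil, from -0.19, a change of sign), -0.27 (macrophage) and 0.00 (megakaryocyte), with Mcpt9 at 0.011 (reversed). It moved 112 of the 282 named differences by more than the standard deviation between the wild-type arrays and reversed 1. The exact folds of these genes therefore depend on it, and for some, such as Notch3, so does passing 2-fold. Without the background filter 4005 genes were lower and 37.2% of called genes higher (46.7% in the report), and medians were -2.49 (ERK feedback), -1.57 (Mrgprb) and -0.082 (erythroid, reversed from 0.33). With both arrays above background they were -2.49 (ERK feedback) and 0.39 (phospholipase A2, from -0.12, a change of sign). Averaged probes gave -0.54 (BCL-2), 0.28 (JAK-STAT, from -0.24, a change of sign), -0.22 (erythroid, reversed) and -0.55 (Cplx2, reversed). The second wild-type baseline gave -2.16 (immediate early), -2.41 (ERK feedback), -1.23 (NF-kB) and -0.93 (unfolded protein response). The cause was not tested. Genes near background carry only bounds.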
